A study of Rattus norvegicus with 6 samples.

Results

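Acute phase proteins are secreted in inflammation and after injury, and many of their genes are switched on by interleukin-6 type cytokines. These cytokines bind a receptor that contains the shared subunit gp130, which activates JAK kinases and through them the transcription factor STAT3. SOCS3, itself made in response to STAT3, binds gp130 and shuts the signal off. In the heart this route is known for its part in myocyte survival and growth. Expression arrays read the amounts of mRNA and not the phosphorylation that activates STAT3.

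The genes described here are 4 secreted proteins of the acute phase response (Pla2g2a, Lcn2, Reg3b and Hamp) and 4 genes of the signalling arm, which are the oncostatin M receptor gene Osmr, the gp130 gene Il6st, Stat3 and Socs3. They were found by their symbols in the platform annotation, which gave 11 probe sets for 7 of the 8 genes among 31042 probe sets. Osmr was not analysed here, since the annotation used paired no probe set with that symbol. The genes were proposed with results of these same arrays known. Pla2g2a and Lcn2 were chosen by their differences under stretch and Reg3b by that under phenylephrine, and no record says which values led to the other genes. All differences of the 7 genes are therefore descriptions, printed with their standard error (SE) and without p-values.

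The study measured cultured heart muscle cells of newborn Wistar rats, 1 to 2 days old, with 6 single-channel Affymetrix arrays. Stretched cells (n = 2 arrays) were seeded on a collagen-coated silicone membrane, kept without serum for 24 h after the first 36 h, and stretched biaxially to 112% for 24 h. Phenylephrine cells (n = 2) received 50 µmol/l of this agonist of the α1-adrenergic receptor. Control cells (n = 2) had no treatment. For control and phenylephrine cultures the sources used here give no surface, serum period or timing. The treatment protocol of the phenylephrine samples also lists endothelin-1 and angiotensin II, but their titles name phenylephrine alone. Each RNA sample combined several cell preparations, per the labels, which do not state whether a group's arrays stem from different cultures. Their spread may then be technical, and the p-values cover no more than that spread. Myocytes had been separated from fibroblasts on a Percoll gradient.

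Values are log2 signals as deposited, and 1 log2 unit is a doubling of signal. The array medians lay between 8.30 and 8.33 log2. The 18 hybridization controls had a median of 9.31 log2 on phenylephrine replicate 2, which stood apart, and of 10.13 to 10.37 on the other arrays. The 3' signal of the GAPDH array control exceeded its 5' signal on every array. On replicates 1 and 2 the excess was 0.36 and 0.48 log2 for stretch, 0.25 and 0.30 for phenylephrine, and 0.36 and 0.59 for control. The 9 measured cardiomyocyte markers had a median of 14.29 to 14.60 log2 on the 6 arrays. Of these 0 passed in limma in any comparison, with 1 at an unadjusted p under 0.05 for phenylephrine against control. Their median difference from control was 0.01 log2 for stretch (5 of 9 above 0) and 0.17 for phenylephrine (7 of 9 above 0). For stretch against phenylephrine it was -0.17, with 0 of 9 above 0. All 10 fibroblast markers were also well within the range of signals, with array medians of 11.47 to 12.18 log2, so the cultures were not free of fibroblast RNA.

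Upstream sequence is shown for the 4 secreted genes, since their differences are the ones that the results turn on. The windows run from 250 bases before to 50 bases after the RefSeq start, on assembly GRCr8. Capitals mark matches to 4 motifs searched on both strands: TTCNNNGAA for STAT3, GGG and TTTCC with 2 free bases between them for NF-κB, TTGCNNAA for C/EBP and GGCGCC for the BMP response element. The Reg3b window is chr4:112419526-112419825 on the plus strand and the Hamp window is chr1:95300222-95300521 on the minus strand. The Pla2g2a window is chr5:156359475-156359774 on the plus strand and the Lcn2 window is chr3:36081731-36082030 on the minus strand.
Reg3b: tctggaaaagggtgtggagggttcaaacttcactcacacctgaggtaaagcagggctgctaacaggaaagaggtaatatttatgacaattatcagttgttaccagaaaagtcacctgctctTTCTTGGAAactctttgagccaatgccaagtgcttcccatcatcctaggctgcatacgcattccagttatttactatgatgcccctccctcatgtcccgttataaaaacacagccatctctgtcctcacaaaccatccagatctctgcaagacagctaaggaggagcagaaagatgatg
Hamp: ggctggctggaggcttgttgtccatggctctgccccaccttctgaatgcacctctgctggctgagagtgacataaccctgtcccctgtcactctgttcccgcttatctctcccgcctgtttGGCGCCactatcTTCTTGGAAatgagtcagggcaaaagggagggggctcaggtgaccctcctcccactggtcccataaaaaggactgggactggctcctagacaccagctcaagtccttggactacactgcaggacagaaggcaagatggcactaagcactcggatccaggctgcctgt
Pla2g2a: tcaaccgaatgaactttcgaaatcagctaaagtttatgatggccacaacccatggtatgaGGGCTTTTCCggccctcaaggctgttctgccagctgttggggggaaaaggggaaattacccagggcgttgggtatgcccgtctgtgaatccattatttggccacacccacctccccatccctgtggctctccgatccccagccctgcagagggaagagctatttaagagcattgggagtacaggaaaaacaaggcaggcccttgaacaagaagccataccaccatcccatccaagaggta
Lcn2: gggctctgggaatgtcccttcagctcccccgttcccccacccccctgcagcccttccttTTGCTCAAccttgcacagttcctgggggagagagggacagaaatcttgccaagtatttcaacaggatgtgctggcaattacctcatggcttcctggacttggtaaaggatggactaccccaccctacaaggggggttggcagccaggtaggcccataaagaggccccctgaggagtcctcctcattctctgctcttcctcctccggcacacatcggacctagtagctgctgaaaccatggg

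The letters TTCTTGGAA, which match the STAT3 motif, occurred in the windows of Reg3b and Hamp, and the motif occurred in neither of the other 2 secreted genes. The match began 129 bases before the start in Reg3b and 117 bases before it in Hamp. In the Hamp window GGCGCC also began 129 bases before the start. The Pla2g2a window held GGGCTTTTCC, a match to the NF-κB motif, 190 bases before the start, and the Lcn2 window held TTGCTCAA, a match to the C/EBP motif, 191 bases before it. The RefSeq table holds 33469 such windows. The STAT3 motif was in 8.87% of them, the NF-κB motif in 1.53%, the C/EBP motif in 10.6% and the BMP response element in 11%. Of the windows of the signalling genes only that of Osmr held a match, to GGCGCC. The windows of Il6st and Socs3 lie inside the annotated genes, 11360 and 1207 bases from their outer ends, so they show internal starts. Only these exact patterns were searched, so a window without a match may still hold a site with other letters. The letters gggaatgtcc near the beginning of the Lcn2 window resemble the NF-κB pattern without matching it, and they stay unmarked. A match is a description of letters, and factor binding was not measured.

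The secreted genes formed 2 patterns. Pla2g2a and Lcn2 were lowest under stretch, intermediate under phenylephrine and highest in control cells. Reg3b and Hamp were low under phenylephrine alone, with stretch and control arrays close together. Of the signalling genes, Stat3 and Socs3 differed little. Il6st was higher under stretch than in control cells, by 0.38 ± 0.12 log2 (SE) on its brightest probe set, without passing in limma.

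**Figure D1:**
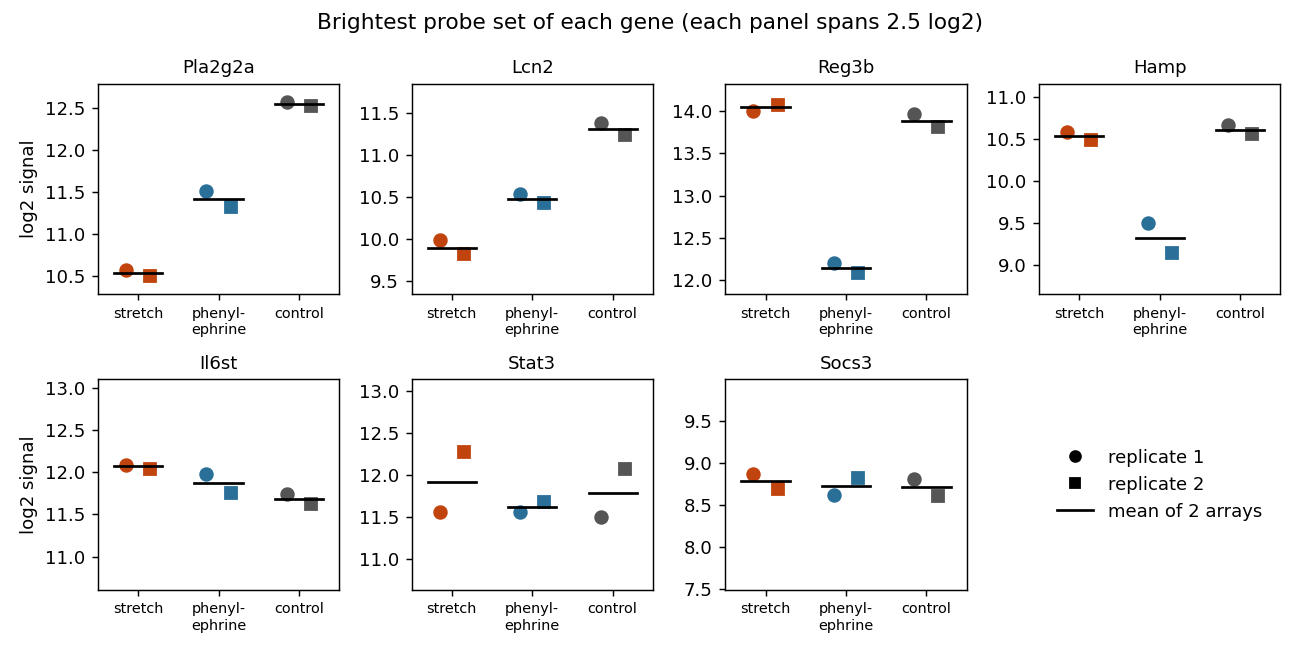
Log2 signal of the brightest probe set of each of the 7 measured genes on the 6 arrays, with stretch, phenylephrine and control from left to right, points for single arrays (circle, replicate 1; square, replicate 2) and bars for the mean of 2 arrays. Pla2g2a and Lcn2 form 3 steps, with stretch lowest at 10.54 and 9.90 log2, while Reg3b and Hamp are low only in the phenylephrine arrays, at 12.14 and 9.32 log2.

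Pla2g2a encodes a secreted phospholipase A2, an enzyme that releases fatty acids from phospholipids and attacks bacterial membranes. Its probe set 1368128_at had 10.58 and 10.51 log2 on the stretch arrays, 11.51 and 11.32 on the phenylephrine arrays, and 12.57 and 12.53 on the control arrays. The 3 groups did not overlap, and each step between them was larger than the spread within any group. The difference of means was -2.01 ± 0.12 log2 (SE) for stretch against control, a 4.02-fold lower signal, and the most negative of all 31042 probe sets. The gene was chosen by this difference, so the rank is no separate result. For phenylephrine against control the difference was -1.14 ± 0.12, or 2.20-fold lower. In the direct comparison of stretch with phenylephrine it was -0.87 ± 0.12.

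Lcn2 encodes lipocalin 2, which withholds iron from bacteria by binding their siderophores. Its probe set 1387011_at had 9.99 and 9.82 log2 on the stretch arrays, 10.54 and 10.43 on the phenylephrine arrays, and 11.38 and 11.24 on the control arrays. The order of the groups was that of Pla2g2a, again without overlap. The difference was -1.41 ± 0.12 log2 (SE), 2.66-fold lower, for stretch against control, and the second most negative of all probe sets. Lcn2 too was chosen by this difference, so its rank is no separate result. The difference was -0.83 ± 0.12, 1.77-fold lower, for phenylephrine against control, and -0.58 ± 0.12 for stretch against phenylephrine.

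Reg3b encodes a secreted C-type lectin of the regenerating family, which in mice is released by heart muscle cells under oncostatin M and attracts macrophages. Its probe set 1368238_at had 14.01 and 14.08 log2 on the stretch arrays, 12.20 and 12.08 on the phenylephrine arrays, and 13.97 and 13.81 on the control arrays. The phenylephrine arrays lay far below the other 4, and the stretch arrays lay just above the controls. The difference for phenylephrine against control was -1.75 ± 0.10 log2 (SE), 3.36-fold lower. Stretch against control gave 0.16 ± 0.10, and stretch against phenylephrine 1.91 ± 0.10, a 3.75-fold higher signal under stretch.

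Hamp encodes hepcidin, the peptide hormone that lowers iron export by binding ferroportin, and is best known as a STAT3 and BMP target in liver. Its probe set 1387396_at had 10.58 and 10.49 log2 on the stretch arrays, 9.50 and 9.15 on the phenylephrine arrays, and 10.67 and 10.56 on the control arrays. The stretch and control arrays overlapped, and both phenylephrine arrays lay below them. The difference for phenylephrine against control was -1.29 ± 0.14 log2 (SE), 2.45-fold lower, with -1.11 when phenylephrine replicate 2 was left out. For stretch against control it was -0.08 ± 0.14, and for stretch against phenylephrine 1.21 ± 0.14.

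**Figure D2:**
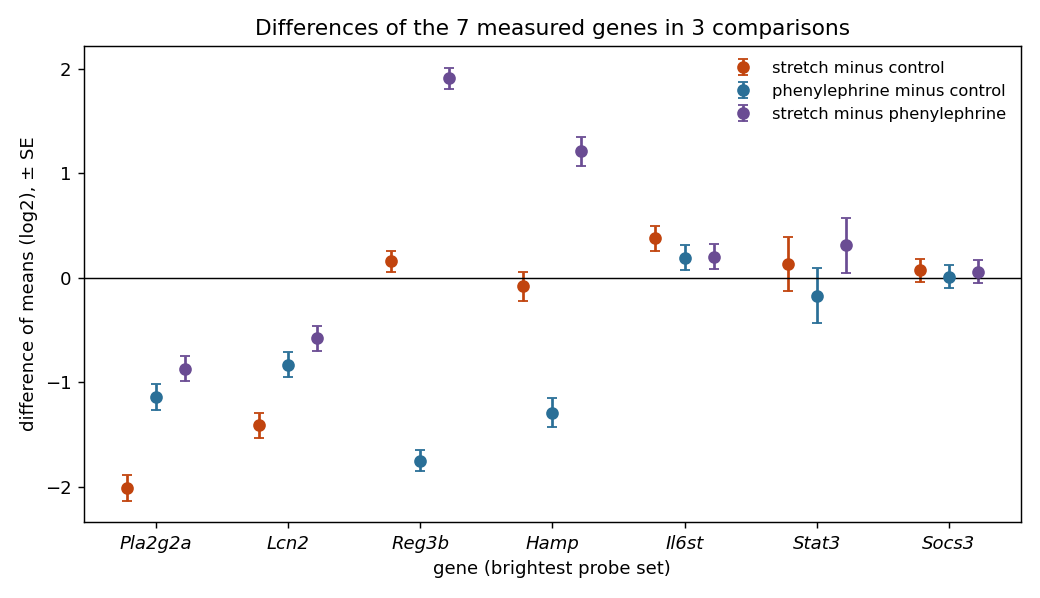
Difference of group means on the log2 scale, ± SE of the limma fit, for the brightest probe set of each gene, with stretch against control in orange, phenylephrine against control in blue and stretch against phenylephrine in purple. The stretch and phenylephrine points against control lie on the same side of 0 for Pla2g2a (-2.01 and -1.14) and Lcn2 (-1.41 and -0.83), while for Reg3b only phenylephrine lies far from 0 (0.16 and -1.75).

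Il6st encodes gp130, the signalling subunit that the receptors for interleukin-6, oncostatin M and leukemia inhibitory factor share, and it was read by 4 probe sets. The brightest, 1371926_at, had 12.09 and 12.04 log2 on the stretch arrays, 11.98 and 11.75 on the phenylephrine arrays, and 11.74 and 11.62 on the control arrays. Stretch was highest and did not overlap with control, and the neighbouring groups were no more than 0.20 log2 apart in their means. The difference was 0.38 ± 0.12 log2 (SE) for stretch against control and 0.19 ± 0.12 for phenylephrine against control. Counted from the most negative, that for stretch ranked 30595 of 31042 probe sets. The other 3 probe sets had 0.47 ± 0.23 (1370957_at), 0.22 ± 0.12 (1373140_at) and 0.25 ± 0.16 (1383489_at) for stretch against control, so all 4 lay above 0. Against phenylephrine these 3 were also higher under stretch, by 0.34 to 0.68 log2. For phenylephrine against control they had -0.21 ± 0.23, -0.15 ± 0.12 and -0.09 ± 0.16, opposite in sign to the brightest probe set.

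Stat3, the transcription factor itself, was read by 2 probe sets. The brighter, 1370224_at, had 11.57 and 12.28 log2 on the stretch arrays, 11.56 and 11.68 on the phenylephrine arrays, and 11.50 and 12.08 on the control arrays. All groups overlapped, and the spread within the stretch group (SD 0.50) was larger than any difference between groups. The second probe set, 1371781_at, was steady on all arrays, with 11.70 and 11.77 under stretch, 11.79 and 11.65 under phenylephrine, and 11.69 and 11.72 in control cells. Its differences were 0.03 ± 0.11 log2 (SE) for stretch and 0.02 ± 0.11 for phenylephrine against control. The 2 probe sets of Stat3 thus gave different pictures of the spread, but neither separated the groups.

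In Stat3 1370224_at and Il6st 1370957_at, replicate 2 was above replicate 1 in every group. For Stat3 the excess was 0.71, 0.12 and 0.59 log2 in stretch, phenylephrine and control cells, and for Il6st 0.67, 0.03 and 0.49. In the other 3 probe sets of Il6st replicate 2 was lower in every group, by 0.04 to 0.40 log2, and in Stat3 1371781_at the replicates differed by at most 0.14 log2. The cause was not tested.

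**Figure D3:**
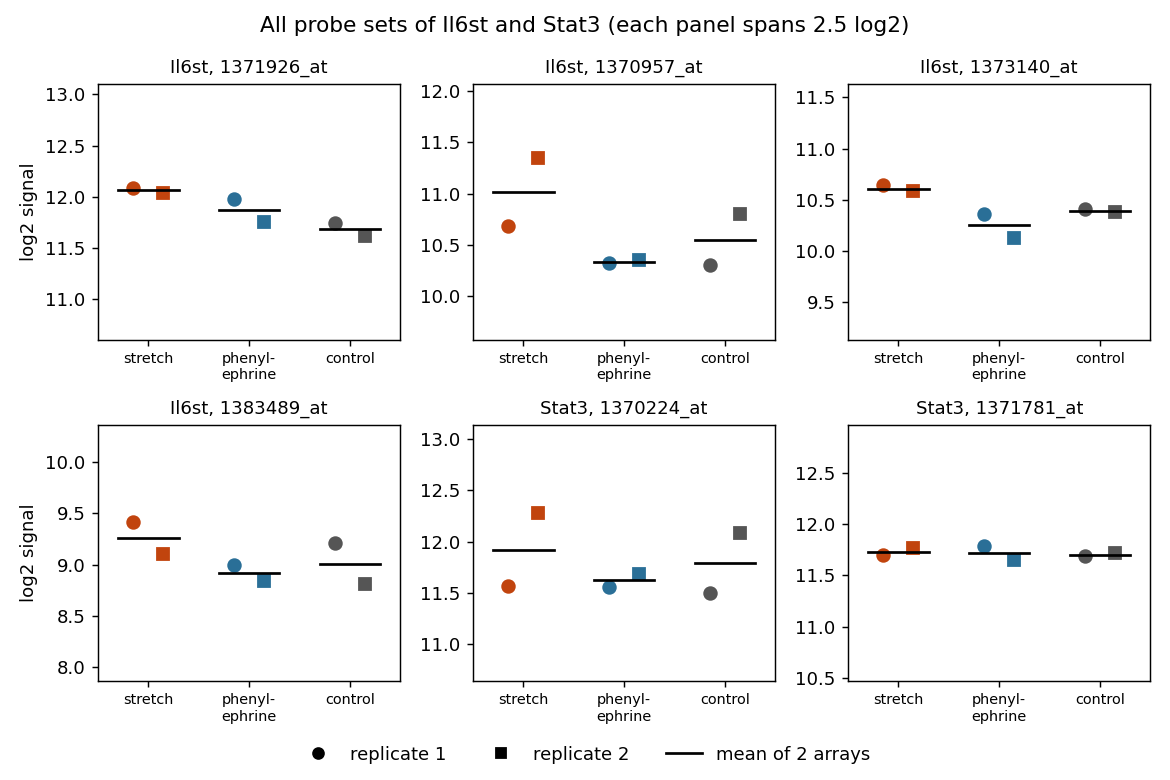
Log2 signal of all 4 probe sets of Il6st and both of Stat3 on the 6 arrays, drawn as in the plot of all genes by array. Replicate 2 (square) lies above replicate 1 (circle) in all groups for 1370957_at and 1370224_at, by up to 0.71 log2, while Stat3 1371781_at stays between 11.65 and 11.79.

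Socs3 encodes the feedback inhibitor of this receptor, and its mRNA is a common readout of STAT3 activity. Its probe set 1369584_at had 8.87 and 8.69 log2 on the stretch arrays, 8.62 and 8.82 on the phenylephrine arrays, and 8.81 and 8.61 on the control arrays. All groups overlapped. The differences were 0.07 ± 0.11 log2 (SE) for stretch and 0.01 ± 0.11 for phenylephrine against control. This signal is close to the array medians, and small changes could not be resolved with 2 arrays per group.

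The fit over all probe sets put 2 of the 7 genes past an adjusted p of 0.05 for stretch against control, where it called 0.345% of all probe sets. Both (Pla2g2a and Lcn2) were lower, as were 0.0387% of all probe sets. For phenylephrine against control it called 4 of 7, beside 3.6% of all probe sets. The 4 are the secreted genes and all were lower, as were 1.87% of all probe sets. For stretch against phenylephrine it called Reg3b and Hamp higher and Pla2g2a lower, 3 of 7 beside 1.33% of all probe sets (0.718% higher and 0.612% lower). The medians of the 7 differences were 0.07, -0.83 and 0.20 log2 in these comparisons, against 0.01, 0.01 and 0.00 for all probe sets. Since the genes were chosen with these results known, the shares say nothing about the group. The comparisons share arrays, so they are not independent of each other. Leaving out 1 array at a time, Pla2g2a and Reg3b kept all their calls against control, as did Hamp under phenylephrine. Lcn2 lost its stretch call without control replicate 1 and its phenylephrine call without control replicate 1 or 2. Without stretch replicate 1 or 2, Reg3b alone remained called between stretch and phenylephrine.

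RNA of other cell types moved with some of these differences. All 10 fibroblast markers were below control under both stimuli, with a median of -0.23 log2 (range -0.56 to -0.14) for stretch and -0.53 (range -0.96 to -0.18) for phenylephrine. Under stretch 0 of 10 passed in limma, with 4 at an unadjusted p under 0.05, and under phenylephrine 4 fell: the matrix genes Col3a1, Dpt and Postn, and the receptor gene Pdgfra. Under phenylephrine 9 of 10 were at an unadjusted p under 0.05. Of all probe sets, 5.54% were so for stretch and 16.6% for phenylephrine. With the replicate number as a block, 3 of the 10 fell under stretch and 8 under phenylephrine. That fit also called more of all 31042 probe sets, 1028 and 5384 in place of 107 and 1117. The summed linear signal of the list was 35916 to 37416 on the stretch arrays, 30803 to 32135 on the phenylephrine arrays and 43522 to 44476 on the control arrays. In bulk RNA, fewer cells of a type and less RNA per cell cannot be told apart. The stretch differences of Pla2g2a and Lcn2 were larger than that of any fibroblast marker. So were the phenylephrine differences of Reg3b, Hamp and Pla2g2a, while that of Lcn2 (-0.83) lay within the markers' range. Between stretch and phenylephrine the fibroblast markers had a median of 0.17 log2 (range -0.06 to 0.39), with 8 of 10 above 0. In that comparison Reg3b (1.91) and Hamp (1.21) were above 0, and Pla2g2a (-0.87) and Lcn2 (-0.58) below it. The part of fibroblast RNA in these differences was not tested.

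Of 8 measured macrophage markers, Cd68 fell under phenylephrine (-0.52 ± 0.11 log2, SE; limma adjusted p = 0.0498), and 0 passed under stretch, with 0 at an unadjusted p under 0.05. The summed signal of this list was 8895 to 9032 on stretch arrays, 6903 to 7338 on phenylephrine arrays and 9031 to 9275 on control arrays. Such a sum weighs the brightest markers most. The median difference of the list under phenylephrine was -0.14 log2, with 2 of 8 markers above 0. Of 8 endothelial markers, Kdr (-0.93 ± 0.12; adjusted p = 0.00853) and Emcn (-0.55 ± 0.07; adjusted p = 0.0079) fell under phenylephrine. The summed signal of the endothelial list was 3306 to 3364, 2727 to 2819 and 3544 to 3565 on stretch, phenylephrine and control arrays. Its median difference under phenylephrine was -0.13 log2, with 1 of 8 markers above 0. Emcn was dim, at 7.81 to 8.43 log2, and only 2 of the 8 markers had a mean signal above the median of all probe sets. Among 6 smooth muscle and pericyte markers Cspg4 rose under phenylephrine (1.3 ± 0.10; adjusted p = 0.00147), and among 5 mesothelial markers Krt8 did (0.34 ± 0.06; adjusted p = 0.0219). Under phenylephrine the smooth muscle and pericyte list had a median of -0.03 log2, with 3 of 6 above 0. The mesothelial list had 0.09, with 4 of 5 above 0, and Krt8 was dim, at 7.71 to 8.10 log2 on all arrays. Between stretch and phenylephrine, Kdr was higher under stretch (0.80 ± 0.12; limma adjusted p = 0.0274) and Cspg4 lower (-0.79 ± 0.10; adjusted p = 0.0137). Kdr had 10.13 and 9.99 log2 under stretch, 9.38 and 9.15 under phenylephrine, and 10.27 and 10.12 in control cells. It was thus low under phenylephrine alone, as were Reg3b and Hamp. The 5 measured neutrophil markers had medians of 7.46 to 7.52 log2 on the 6 arrays, all below the array medians, and 0 passed in limma in any comparison, with 0 at an unadjusted p under 0.05. Their part in the differences of the secreted genes was not tested.

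**Figure D4:**
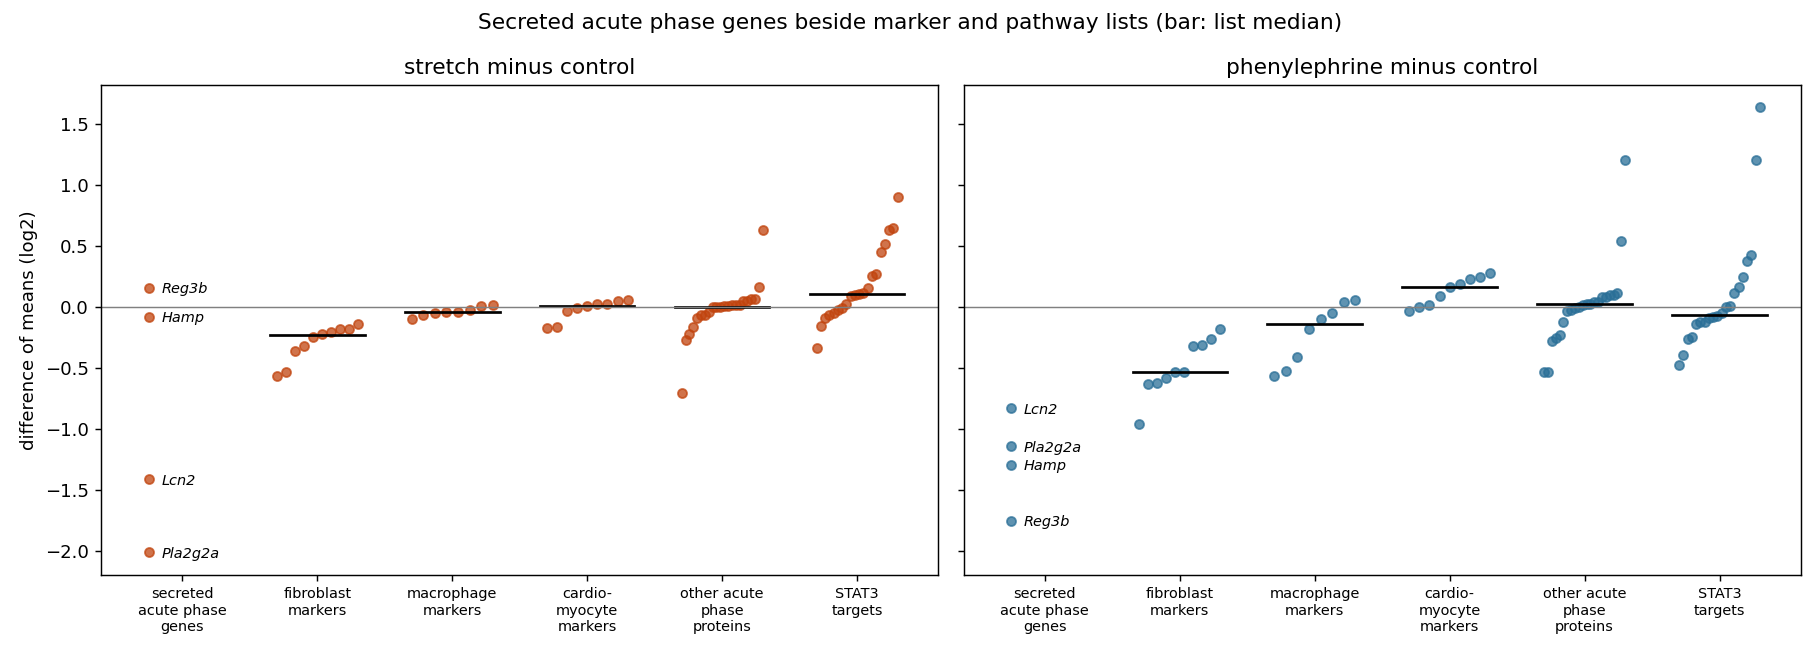
Difference of means on the log2 scale for stretch against control (left) and phenylephrine against control (right), 1 point per gene, with bars at the medians of the marker and pathway lists. Pla2g2a (-2.01) and Lcn2 (-1.41) lie below every listed gene shown under stretch, and Reg3b (-1.75), Hamp (-1.29) and Pla2g2a (-1.14) do so under phenylephrine.

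Other genes of the same biology were followed in 10 lists, with 120 of 128 genes measured. In limma 1 rose and 1 fell under stretch, and 5 rose and 5 fell under phenylephrine. Between stretch and phenylephrine 2 were higher and 3 lower under stretch. At an unadjusted p under 0.05 there were 11, 33 and 28 of the 120, where 5.54%, 16.6% and 12.5% of all probe sets were. Each of the 120 genes is read by its brightest probe set, so these counts and shares cover unlike sets. The medians over the 120 genes were 0.00, -0.01 and 0.02 log2 in these comparisons. Each of the 17 calls named in the following paragraphs was lost when at least 1 array was left out. With only the 2 groups compared, the calls of Socs6, Extl3 and Nfkbia under phenylephrine were lost, and so were those of Lbp, Cebpb and Fos between the stimuli. With the replicate number as a block, 6 of the 120 genes rose and 2 fell under stretch, and 12 rose and 20 fell under phenylephrine. Over all 31042 probe sets the block called 1028 and 5384, in place of 107 and 1117. The higher counts are thus not particular to the lists.

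The ligands that act through gp130 showed no call. Of 8 measured ligand genes 0 passed in limma in any comparison, with 0, 1 and 0 at an unadjusted p under 0.05 for stretch, phenylephrine and the direct comparison. Their signals ran from 6.37 to 8.33 log2 over all 6 arrays, up to about the array medians, and changes may go unseen in this dim range. Il6, the founding cytokine of the family, had 7.38 and 7.39 log2 under stretch, 7.39 and 7.27 under phenylephrine, and 7.34 and 7.26 in control cells. Osm, the ligand of the receptor that includes OSMR, had 7.23 and 7.32, 7.28 and 7.28, and 7.31 and 7.49 log2 in stretch, phenylephrine and control cells. Il6 and Osm were chosen after their values were seen. The largest ligand difference was that of the cardiotrophin gene Ctf1 under phenylephrine (-0.19 ± 0.07 log2, SE; adjusted p = 0.21).

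Of the other receptor subunits, 0 of 5 passed in limma in any comparison, with 0 at an unadjusted p under 0.05 for either stimulus against control and 1 for the direct comparison. The largest difference was that of the interleukin-11 receptor gene Il11ra1 between stretch and phenylephrine (-0.37 ± 0.11 log2, SE; adjusted p = 0.188). Among 13 JAK kinases, other STATs and phosphatases 0 passed in limma, with 0, 4 and 3 at an unadjusted p under 0.05. Stat2, which works in interferon signalling, had the largest value, -0.51 ± 0.11 for phenylephrine against control (adjusted p = 0.0586). Of 10 inhibitors of the SOCS and PIAS families, Socs6 fell under phenylephrine, with 11.89 and 11.87 log2 in stretched, 11.32 and 10.87 in phenylephrine and 12 and 11.89 in control cells (-0.84 ± 0.16; adjusted p = 0.0311 in limma). The inducible inhibitors Socs1 (0.08 ± 0.07) and Cish (0.08 ± 0.07), chosen after their values were seen, did not pass under phenylephrine.

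Of 20 STAT3 target genes, 1 rose and 0 fell under stretch, with a list median of 0.10 log2, and 2 rose and 0 fell under phenylephrine, with a median of -0.06. At an unadjusted p under 0.05 there were 5 of the 20 under stretch, 7 under phenylephrine and 8 between the stimuli. With the replicate number as a block 5 rose under stretch: Myc, Timp1, Cebpb, Fos and Nfil3. The block raised the calls over all probe sets as well, from 107 to 1028 under stretch. Myc, a growth regulator, rose under stretch, with 10.16 and 9.94 log2 against 9.22 and 9.09 in control cells (0.90 ± 0.11 log2, SE; limma adjusted p = 0.0223). In phenylephrine cells it had 9.13 and 9.03. Fos, an AP-1 subunit, rose under phenylephrine (1.64 ± 0.22; adjusted p = 0.00861), and so did Timp1, an inhibitor of matrix proteases that is also an acute phase protein (1.21 ± 0.14; adjusted p = 0.00552). Stretch gave Timp1 0.63 ± 0.14 (adjusted p = 0.225). Between the stimuli, Myc (0.97 ± 0.11; adjusted p = 0.00958) and Cebpb, a factor of the acute phase response (0.78 ± 0.11; adjusted p = 0.0191), were higher under stretch, and Fos was lower (-1.19 ± 0.22; adjusted p = 0.0471). The Fos call between the stimuli was also lost without the variance trend and with robust variances. The list mixes targets that other pathways also drive.

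Of 22 other acute phase proteins, 1 fell and 0 rose under stretch (median 0.00 log2), and 2 rose and 1 fell under phenylephrine (median 0.02). Many of the 22 had signals at or below the array medians, where changes may go unseen. The list medians are therefore no measure of a lack of response. C3, the central complement protein, fell under both stimuli, with 8.63 and 8.62 log2 in stretched cells, 8.77 and 8.82 in phenylephrine cells and 9.36 and 9.29 in control cells. Its differences were -0.70 ± 0.08 (SE; limma adjusted p = 0.0133) for stretch and -0.53 ± 0.08 (adjusted p = 0.012) for phenylephrine. Lbp, which binds bacterial lipopolysaccharide, rose under phenylephrine (0.54 ± 0.09; adjusted p = 0.0173) and was lower under stretch than under phenylephrine (-0.54 ± 0.09; adjusted p = 0.0314). Timp1, described above, was the other rise. At an unadjusted p under 0.05 there were 4 of the 22 under stretch, 6 under phenylephrine and 3 between the stimuli.

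Relatives of the secreted genes were measured too. In the phospholipase A2 family 0 of 11 other genes passed under stretch in limma, with 0 at an unadjusted p under 0.05. Several of the 11 lay below the array medians, where changes may go unseen. Under phenylephrine Pla2g6, an intracellular calcium-independent form, fell (-0.56 ± 0.09 log2, SE; adjusted p = 0.0206). Pla2g5, a secreted form, was chosen after its values were seen and had -0.04 ± 0.12 under stretch and 0.43 ± 0.12 under phenylephrine (adjusted p = 0.12). In the regenerating family, Reg3g, a close relative of Reg3b, had 7.78 and 7.66 log2 under phenylephrine against 7.88 and 7.87 in control cells (-0.16 ± 0.06; adjusted p = 0.26), and Reg3a had -0.05 ± 0.06. Both were chosen after their values were seen. Extl3, a proposed receptor of these lectins, fell under phenylephrine (-0.58 ± 0.11; adjusted p = 0.0345).

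In the hepcidin and BMP pathway 0 of 19 genes passed under stretch in limma, with 1 at an unadjusted p under 0.05. Id1, a direct BMP target, rose under phenylephrine, with 11 and 10.85 log2 against 10.13 and 10.03 in control cells (0.85 ± 0.12 log2, SE; adjusted p = 0.0104), in the direction opposite to Hamp. The ferroportin gene Slc40a1, whose protein hepcidin binds, had 0.24 ± 0.15 under stretch and -0.19 ± 0.15 under phenylephrine (adjusted p = 0.598), and the ligand gene Bmp6 had 0.02 ± 0.09 and -0.01 ± 0.09. Both were chosen after their values were seen. Among 9 lipocalin receptors and NF-κB regulators, Nfkbiz, which encodes an IκB-type cofactor needed for Lcn2 induction in mouse macrophages, rose under phenylephrine (0.90 ± 0.12; adjusted p = 0.00875), while Lcn2 was lower. Between the stimuli Nfkbiz was lower under stretch (-0.93 ± 0.12; adjusted p = 0.014). It had 8.86 and 8.72 log2 in stretched cells, 9.87 and 9.56 in phenylephrine cells and 8.87 and 8.77 in control cells. Nfkbia, the inhibitor IκBα, fell under phenylephrine (-0.56 ± 0.11; adjusted p = 0.0347). Under stretch 0 of these 9 passed, with 1 at an unadjusted p under 0.05.

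The genes nearest in pattern to each secreted gene were sought over the 6 arrays among all genes with 1 symbol. Nearness was the root mean square (RMS) difference between log2 values, each centred on its own mean, and small values mean alike profiles. The choice of these genes fixes their differences, so they are given without tests. Lcn2 was nearest to Pla2g2a (RMS 0.25 log2), and Pla2g2a was nearest to Lcn2. Behind Lcn2 stood the connexin 40 gene Gja5 (0.49) and C3 (0.54). Gja5 had 10.68 and 10.61 log2 under stretch, 10.63 and 10.34 under phenylephrine, and 11.67 and 11.59 in control cells. C3 (0.30) and the homeodomain gene Hopx (0.31) followed Pla2g2a in the order for Lcn2. Of these, Gja5 and Hopx lacked the step between stretch and phenylephrine that Pla2g2a had, with overlapping arrays and differences of 0.16 and -0.04 log2.

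For Reg3b the nearest genes were the tyrosine phosphatase gene Ptprr (RMS 0.11 log2), the vesicle GTPase gene Rab3b (0.18) and the arrestin-domain gene Arrdc3 (0.23). Ptprr had 11.48 and 11.34 log2 under stretch, 9.80 and 9.48 under phenylephrine, and 11.26 and 11.14 in control cells. For Hamp they were the fatty acid binding protein gene Fabp4 (0.05), the folliculin-interacting gene Fnip2 (0.06) and Masp1, a protease of the lectin route of complement (0.07). Fabp4 had 11.04 and 10.96 log2 under stretch, 10.09 and 9.74 under phenylephrine, and 11.17 and 11.07 in control cells. Reg3b and Hamp were 0.30 log2 apart by this measure, while Pla2g2a stood 1.19 from Reg3b and 0.95 from Hamp.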

How the data were processed

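The deposited table holds 1 log2 value per probe set and array. The values were taken as log2 from their range, and how the authors summarized and normalized them stays unstated in the labels and the file. Array medians differed by 0.038 log2, under the limit of 0.3, so the deposited scaling was kept. Of 31099 probe sets, 57 array controls were left out and 31042 tested. Genes came from the platform annotation of 2016 (20826 probe sets with 1 symbol, 436 with several, 9780 with none), and a gene was represented by its brightest probe set. All 6 arrays entered 1 fit of group means in limma 3.58.1 (R 4.3.3, eBayes with trend), two-sided, with Benjamini-Hochberg adjustment over all probe sets and a threshold of 0.05. It had 3 residual degrees of freedom, and the prior added 4.8. With 2 against 2 arrays the smallest p of an exact permutation test is 0.333, so none was run. The fit was also run on simulated data with independent noise on each array. Deviations shared by arrays of equal replicate number were not simulated, so that run says nothing about their effect.

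Members, lists and tests were chosen with earlier results of these data known. The text names all members with every probe set, up to 4 called genes per list with the largest change (or else the gene with the largest change), and the 3 genes nearest in pattern to each secreted gene. Pathway genes outside this rule are marked, apart from those named for calls that changed under an alternative. For the marker lists, the called genes are named. Promoter windows are RefSeq, GRCr8, and all 8 genes matched. For arrays, their number limits the precision. Alternatives were quantile normalization, no trend, robust variances, a filter on dim probe sets, the replicate number as a block, only the compared groups, each array left out, and the mean of a gene's probe sets.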

Additional observations from a re-analysis of the deposited data

How the results depend on the processing

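Of 216 values of the members' differences under alternatives, 200 stayed within 1 residual SD of the reported value, 16 moved further and 0 changed the sign of a called difference. Many of the 200 were fixed in advance. A difference of means cannot change without the trend, with robust variances, with the dim filter, with the block or with only the 2 groups compared. The count of 200 is therefore no measure of stability. With 1 array left out, the members called ran from 1 to 2 for stretch and 3 to 4 for phenylephrine against control, and from 1 to 3 between the stimuli. Lcn2 was also called between stretch and phenylephrine with quantile normalization, without the trend and with the replicate block, and Il6st for stretch against control with quantile normalization and with the block. With only the 2 groups compared, Pla2g2a lost its call between stretch and phenylephrine. Over all probe sets the counts of 107 and 1117 for stretch and phenylephrine against control and of 413 between the stimuli became 386, 2790 and 1527 with quantile normalization. The share of rises then was 72.5% in place of 88.8% for stretch. The replicate block gave 1028, 5384 and 3734 calls, which included all calls of the fit without it, with 69.9%, 40.0% and 65.3% rises in place of 88.8%, 48.2% and 54.0%. The replicate numbers have no stated meaning, and the deviations of equal numbers correlated across probe sets with 0.673 (stretch and control), 0.487 (phenylephrine and control) and 0.534 (stretch and phenylephrine). With only the compared groups, 661 and 230 were called in the comparisons with phenylephrine. With 1 array left out, counts ran from 26 to 47, from 189 to 1249 and from 51 to 473. The share of rises for phenylephrine against control turned over, with 28.9% without phenylephrine replicate 1 and 71.0% without phenylephrine replicate 2, and that between the stimuli was 76.3% and 28.0%. Of the 120 pathway genes the block additionally called 6 for stretch against control (Cebpb, Fos, Id1, Itih4, Nfil3 and Timp1), 22 for phenylephrine against control, Ctf1 among them, and 25 between the stimuli, and lost none of the reported calls. Quantile normalization additionally called 3, 17 and 9 of them, and also lost none. Of the marker genes, the block additionally called 4, 9 and 9. Quantile normalization additionally called Myh6, Dcn, Dpt and Postn under stretch. With only the 2 groups compared, the marker calls of Cd68, Krt8, Pdgfra and Postn under phenylephrine were lost, and so was that of Kdr between the stimuli. The calls of Kdr and Cspg4 between the stimuli were lost without stretch replicate 1 or 2. Each marker call under phenylephrine apart from those of Dpt and Cspg4 was lost without at least 1 array. The cause of these shifts was not tested. With 2 arrays per group and no detection calls, small changes of dim probe sets cannot be resolved.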
